A study of Mus musculus with 9 samples.

Results

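The 9 genes whose proteins are known to move doxorubicin out of cells or to change it chemically were followed through RNA-seq of mouse hearts: Abcb1a, Abcb1b, Abcc1, Abcg2, Cbr1, Cbr3, Nqo1, Por and Akr1a1. They were given as a list of symbols, and all 9 of 9 were found by Entrez gene ID among the 16873 genes listed, each with a mean above the 1 FPKM needed for testing. FPKM divides the sequenced fragments of a gene by its transcript length and by the depth of the library, so levels can be compared between genes on this scale. The groups were wild-type (WT) hearts given saline, WT hearts given doxorubicin (WT DOX), and hearts of Sting-/- mice given doxorubicin (Sting-/- DOX), with 3 libraries each. The series names Sting-deficient mice apart from mice that lack Sting in endothelial cells alone, which were not analysed here. The series describes low-dose doxorubicin given to induce chronic cardiotoxicity, and asks what the cGAS-STING pathway, which senses DNA and switches on interferon genes, does in that setting. Dose, time, age, sex and strain are not given in the sources used here, and no label ties a library to its own animal. A p-value here therefore reflects the spread among these libraries, which may be technical. No saline library of Sting-/- hearts was analysed here. Any difference of the Sting-/- group therefore holds both the genotype and its response to the drug, and these cannot be told apart.

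Doxorubicin can enter cells by diffusion and can leave them through ATP-driven pumps of the ABC family. P-glycoprotein, a single protein in humans and encoded in mice by Abcb1a and Abcb1b, and BCRP, encoded by Abcg2, sit in the capillary endothelium of many organs, the heart among them. MRP1, encoded by Abcc1, exports glutathione conjugates and many drugs. Inside the cell, carbonyl reductases (Cbr1, Cbr3) and aldo-keto reductases (Akr1a1) turn the drug's side-chain ketone into an alcohol, doxorubicinol, which is itself implicated in cardiotoxicity. Its quinone ring can be reduced by single electrons, for example by cytochrome P450 reductase (Por), to a radical that reacts with oxygen, whereas Nqo1 reduces quinones by transferring electrons in pairs. The transcription factor NRF2 (Nfe2l2), held back by Keap1, is known to drive Nqo1, several carbonyl reductases and Abcc1.

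Depth and labels were checked first. The deposited values keep no read counts. Steps among low values, read from 1343 genes that have 1 annotated transcript, put the depth at about 10.7 to 10.9 (saline), 12.4 to 12.8 (WT DOX) and 7.8 to 8.2 (Sting-/- DOX), in units of 1e6 fragments. These figures are approximate. Only 112 to 186 values per library were checked, and 49.6% to 58.6% of them fell within 0.1 reads of a whole number. On that estimate the least covered of the 9 genes, Cbr3, rested on about 20 to 88 fragments per library and the most covered, Akr1a1, on about 2116 to 4258. Sting1, the gene removed, was at 5.1, 5.43 and 5.93 FPKM in the saline libraries and at 17.49, 17.96 and 17.76 FPKM after doxorubicin in WT hearts. It was at 0.06 FPKM in the first Sting-/- library and listed at 0 in the others, as the labels say. The cardiomyocyte markers Myh6 and Tnnt2 were abundant in all 9 libraries, at 757 FPKM or more and 2694 FPKM or more. Both were lowest in the Sting-/- group.

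The 9 genes split in each comparison. In WT DOX against saline 4 were higher (Akr1a1, Por, Nqo1, Abcc1), 2 were lower (Abcb1a, Cbr1) and 3 did not pass the test (limma, adjusted p of 0.05), beside 45.3% of all 12485 tested genes called higher and 21.5% called lower, together 66.7%. Ranges of the groups did not overlap for 7 of the 9, beside 71.7% of all tested genes. In Sting-/- DOX against WT DOX 6 were higher (Abcb1a, Abcb1b, Abcg2, Cbr1, Cbr3, Akr1a1) and 3 lower (Nqo1, Abcc1, Por), beside 54.1% and 29.7% of all tested genes, together 83.8%. The ranges were apart for all 9, beside 84.8%. In Sting-/- DOX against saline 6 were higher and 3 lower, beside 63.0% and 25.9%, together 88.9%, with Por and Cbr1 having changed places, and the ranges were apart for all 9, beside 89.2%. These shares of the 9 genes were near those of all genes, so what follows concerns the single genes. Their median difference on the log2(FPKM + 1) scale was 0.22, 0.72 and 0.83 in the 3 comparisons, beside 0.13, 0.25 and 0.49 over all tested genes. The medians of the 9 genes were 0.002, 0.38 and 0.26 after median-ratio scaling and -0.01, 0.63 and 0.45 after quantile normalization. Both comparisons with WT DOX share its libraries, and both with saline share those, so the comparisons are not independent of each other.

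How calls divided between higher and lower depended on the scaling. Of all genes called, 67.8% were higher in WT DOX than in saline on the deposited FPKM. This share was 41.2% after median-ratio scaling and 39.2% after quantile normalization. In the same order the shares were 64.6%, 46.7% and 51.4% in Sting-/- DOX against WT DOX, and 70.9%, 49.0% and 51.3% in Sting-/- DOX against saline. The median difference of all tested genes moved from 0.128 to -0.085 and -0.104 in the first comparison, from 0.249 to -0.049 and 0.019 in the second, and from 0.494 to -0.016 and 0.029 in the third. Values of the 9 genes under both scalings are given below where they change a call, and for some but not all other differences that move.

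**Figure D1:**
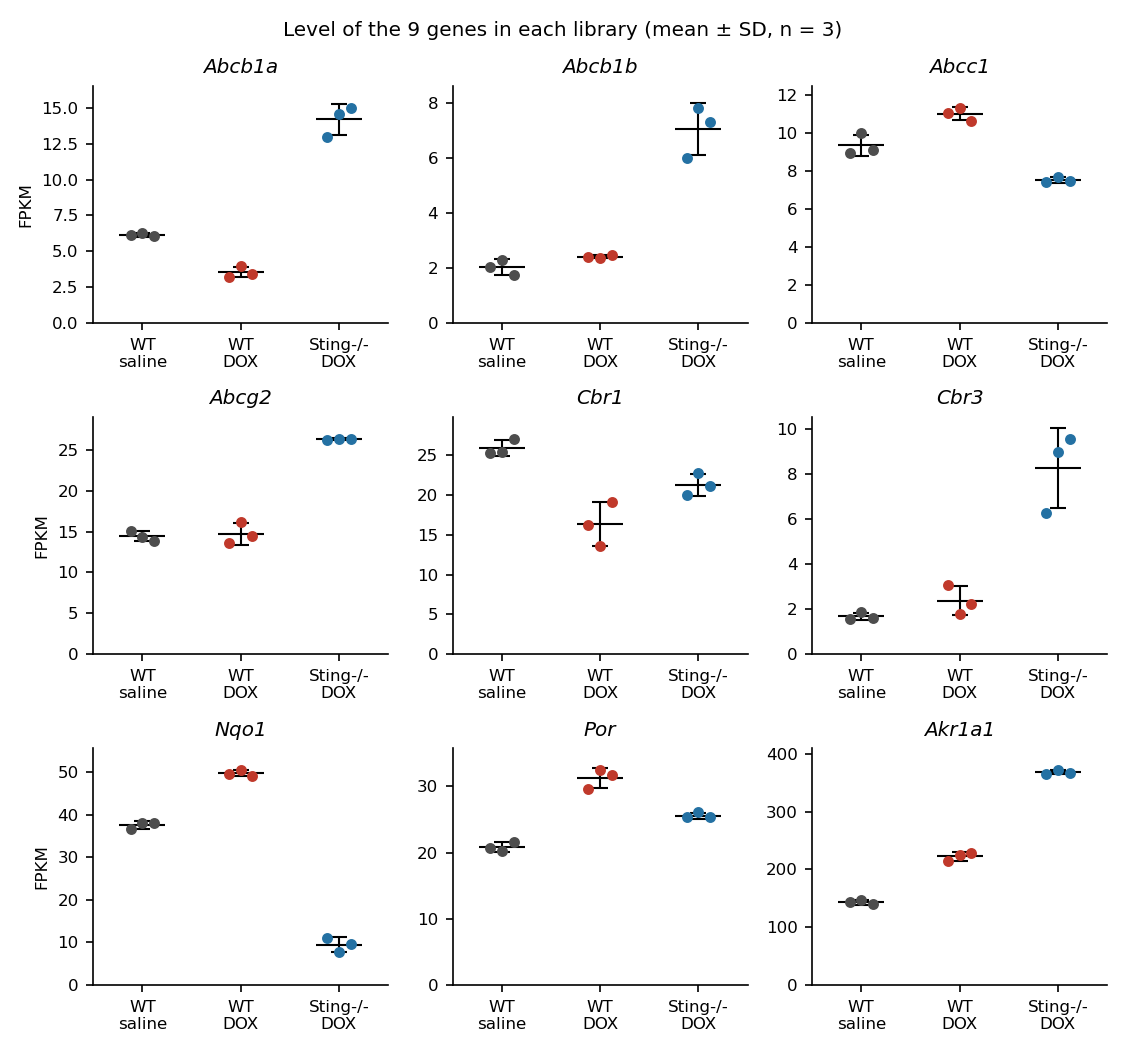
FPKM (vertical axis, from 0) of each gene in the 3 libraries of each group, with the group mean as a long bar and the SD as capped lines. Abcb1a was lowest in WT DOX and highest in Sting-/- DOX, Nqo1 was lowest in Sting-/- DOX, and Akr1a1 was higher in each group from saline to WT DOX to Sting-/- DOX.

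Among the pumps, Abcb1a (gene ID 18671) was the member of the P-glycoprotein pair with the higher level in every library. It was at 6.12, 6.30 and 6.04 FPKM under saline, at 3.24, 3.96 and 3.44 FPKM in WT DOX hearts and at 12.98, 14.60 and 15.03 FPKM in Sting-/- DOX. The 3 groups did not overlap, with WT DOX lowest and Sting-/- DOX highest. Abcb1a fell in WT DOX to 0.576 times the saline mean, a log2 difference of -0.66 (SE 0.074, limma adjusted p = 8.04e-06). Sting-/- DOX hearts had 4.0-fold higher levels than WT DOX (log2 difference 1.74, SE 0.074, limma adjusted p = 4.1e-10) and 2.31-fold higher levels than saline (log2 difference 1.09, limma adjusted p = 2.35e-08). Each of these calls held under all 18 alternatives, but the difference from saline in Sting-/- DOX was 0.55 after median-ratio scaling and 0.60 after quantile normalization.

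Abcb1b (gene ID 18669), the other P-glycoprotein gene, did not pass the test in WT DOX against saline. It was at 2.05, 2.31 and 1.74 FPKM under saline and at 2.42, 2.37 and 2.46 FPKM in WT DOX, a log2 difference of 0.18 (SE 0.096, limma adjusted p = 0.127), although the WT DOX values all lay just above the saline values. This difference was 0.002 after median-ratio scaling and -0.11 after quantile normalization. Abcb1b in Sting-/- DOX was at 6.02, 7.84 and 7.30 FPKM, clear of both WT groups. It was 2.92-fold higher there than in WT DOX (log2 difference 1.23, SE 0.096, limma adjusted p = 1.34e-07) and 3.47-fold higher than in saline (log2 difference 1.41, or 0.94 and 0.83 under the same scalings).

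The make-up of the P-glycoprotein transcripts can be given as the share of Abcb1b. It held 25.1%, 26.8% and 22.4% of the FPKM of the pair in the saline libraries, 42.8%, 37.4% and 41.7% in WT DOX, and 31.7%, 34.9% and 32.7% in Sting-/- DOX. The groups did not overlap, and each of the 3 comparisons gave p = 0.1 in an exact two-sided permutation test, the smallest value that 3 against 3 libraries allow. The means were 24.8% ± 2.25, 40.6% ± 2.81 and 33.1% ± 1.67 (SD, n = 3 each). The sum of the pair was 8.19 ± 0.415 FPKM under saline, 5.96 ± 0.339 FPKM in WT DOX hearts and 21.3 ± 1.96 FPKM in Sting-/- DOX, and this sum depends less than the shares on how reads were divided between the copies. The division itself is uncertain in part. The longest coding transcripts of Abcb1a and Abcb1b are 88.8% identical over 3985 aligned bases, and 15.5% of the 50-base windows of Abcb1a, or 7.49% of its 100-base windows, also occur in Abcb1b.

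**Figure D2:**
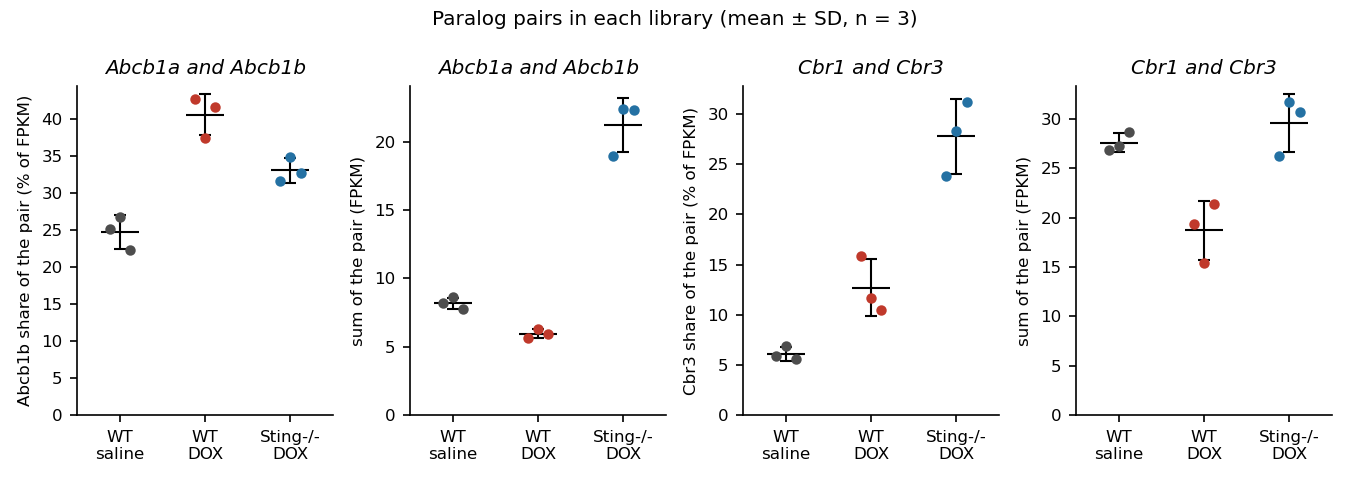
For each paralog pair, the share of the smaller partner in the pair's FPKM (percent, from 0) and the sum of the pair (FPKM, from 0), as points per library with mean and SD. The Abcb1b share was highest in WT DOX at 40.6%, and the Cbr3 share was highest in Sting-/- DOX at 27.8%.

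Abcb1a and Abcb1b lie next to each other on chromosome 5, and the upstream sequences of both are shown because both were higher in Sting-/- DOX while Abcb1a alone passed the test in WT DOX. Each line gives the 250 bases before the RefSeq transcription start in GRCm38.p6, 5′ to 3′ on the gene's strand, with matches to a CCAAT box (CCAAT), a GC box (GGGCGG), an aryl hydrocarbon receptor core (GCGTG) or an antioxidant response element core (TGACNNNGC) in capitals on either strand.
Abcb1a (chr5:8566841-8567090, plus strand): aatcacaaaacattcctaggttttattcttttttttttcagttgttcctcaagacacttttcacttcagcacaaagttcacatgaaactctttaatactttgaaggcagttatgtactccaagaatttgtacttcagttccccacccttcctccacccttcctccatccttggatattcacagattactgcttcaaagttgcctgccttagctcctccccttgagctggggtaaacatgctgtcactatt
Abcb1b (chr5:8797897-8798146, plus strand): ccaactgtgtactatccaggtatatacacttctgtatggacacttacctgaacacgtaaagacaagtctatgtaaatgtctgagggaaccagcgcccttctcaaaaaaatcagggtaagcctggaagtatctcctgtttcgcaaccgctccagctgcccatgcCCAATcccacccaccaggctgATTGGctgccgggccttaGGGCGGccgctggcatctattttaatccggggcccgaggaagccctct
The Abcb1b window holds a CCAAT box beginning 87 bases before the start, another in reverse at 66 bases and a GC box 48 bases before it, while none of the motifs searched is in the Abcb1a window. Of all 32851 promoter windows of this length, 33.8% hold a CCAAT box and 32.7% a GC box, so such matches are common and describe the sequence only. The next gene along, Abcb4, which encodes the phospholipid pump of bile, moved the other way from its neighbours in Sting-/- DOX. Its mean fell from 9.86 ± 0.203 FPKM under saline to 5.91 ± 0.405 FPKM in WT DOX, and was 1.68 ± 0.236 FPKM in Sting-/- DOX (SD, n = 3 each). The log2 differences were -0.65 and, between the DOX groups, -1.37 (limma adjusted p = 1.17e-05 and 5.64e-09).

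Abcg2 (gene ID 26357), the BCRP pump, was at 15.11, 14.32 and 13.91 FPKM under saline and at 13.58, 16.22 and 14.50 FPKM in WT DOX, and these ranges overlapped. The log2 difference of 0.03 (SE 0.061) did not pass the test (limma adjusted p = 0.715), whereas Abcg2 passed as lower under median-ratio scaling and quantile normalization, at -0.21 and -0.18 (limma adjusted p = 0.00792 and 0.0153; over all alternatives 0.00792 to 0.985). Its Sting-/- DOX values were 26.28, 26.40 and 26.42 FPKM, with a coefficient of variation of 0.287%, the smallest of the 9 genes in any group. That was 1.79-fold above WT DOX (log2 difference 0.80, SE 0.061, limma adjusted p = 1.06e-07) and 1.83-fold above saline (log2 difference 0.83). Both calls held under all 18 alternatives, with smaller differences of 0.47 and 0.26 after median-ratio scaling and 0.63 and 0.45 after quantile normalization.

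Endothelial markers moved with these pumps in the Sting-/- comparison. All 12 markers of the endothelial list were higher in Sting-/- DOX than in WT DOX, beside 54.1% of all tested genes called higher. Their median log2 difference was 2.02. In Sting-/- DOX their summed level was 1785 to 1915 FPKM, against 419.8 to 428 FPKM in WT DOX and 419.3 to 430.3 FPKM in saline. Pecam1, for example, was at 62.8 ± 2.77 FPKM in WT DOX hearts and 183.3 ± 6.73 FPKM in Sting-/- DOX (SD, n = 3 each). In WT DOX against saline the list had 2 members higher and 3 lower, beside 45.3% and 21.5% of all tested genes. Its median was 0.02, beside the fall of Abcb1a. With median-ratio scaling 0 were higher and 9 lower, at a median of -0.22. Set against the summed endothelial markers, a ratio chosen after the values were seen, Abcb1a stood at 1.43 to 1.46 FPKM per 100 FPKM of markers in saline, 0.772 to 0.927 in WT DOX hearts and 0.727 to 0.785 in Sting-/- DOX. The same ratio was 3.29 to 3.6, 3.24 to 3.8 and 1.38 to 1.47 for Abcg2, and 0.411 to 0.537, 0.555 to 0.577 and 0.337 to 0.421 for Abcb1b. On this ratio the Sting-/- range of Abcg2 lay below both WT groups. That of Abcb1b lay below WT DOX and overlapped saline, and that of Abcb1a lay below saline and overlapped WT DOX. Markers of erythroid cells, which also make BCRP, were higher in 5 of 5 tested cases as well, at a summed 8481 to 9701 FPKM against 1498 to 1638 FPKM in WT DOX. The red cell membrane gene Slc4a1 was below the filter, at 0.42 to 0.46 FPKM in Sting-/- DOX and 0 to 0.07 FPKM in WT DOX. The part of these cell types in the pump levels was not tested. In bulk tissue a change in the number of cells of a type and a change in RNA per cell cannot be told apart.

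Abcc1 (gene ID 17250), the MRP1 pump, was lowest in Sting-/- DOX, where the other pumps were highest. It was at 8.94, 9.99 and 9.13 FPKM under saline, 11.06, 11.34 and 10.64 FPKM in WT DOX hearts and 7.43, 7.70 and 7.48 FPKM in Sting-/- DOX, with no overlap between groups. The rise in WT DOX was small, at a log2 difference of 0.22 (SE 0.056, limma adjusted p = 0.00488), and disappeared under 2 scalings, at -0.015 (median-ratio) and -0.010 (quantile normalization), where it was no longer called. In Sting-/- DOX Abcc1 was lower than in WT DOX (log2 difference -0.49, SE 0.056, limma adjusted p = 4.44e-06) and than in saline (-0.28, limma adjusted p = 5.15e-04). These calls held under all 18 alternatives, with larger differences of -0.79 and -0.81 after median-ratio scaling and -0.77 and -0.78 after quantile normalization.

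**Figure D3:**
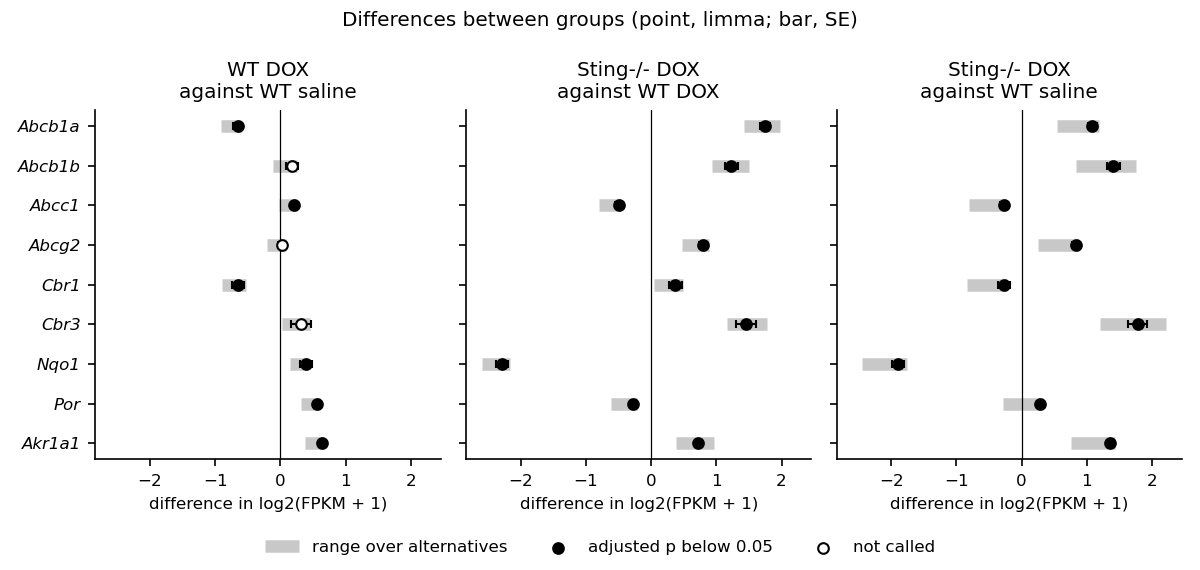
Difference in log2(FPKM + 1) between groups for each gene (horizontal axis), with its SE as a black bar and the range over the alternative settings as a grey bar, filled where the limma adjusted p was below 0.05. Grey bars cross 0 for Abcb1b, Abcc1 and Abcg2 in WT DOX against saline and for Por in Sting-/- DOX against saline.

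Of the carbonyl-reducing enzymes, Akr1a1 (gene ID 58810), an aldehyde reductase, was by far the most abundant of the 9 genes with a level that was higher in WT DOX and higher again in Sting-/- DOX. It was at 142.8, 147.4 and 139.3 FPKM under saline, 214.1, 225.7 and 228.3 FPKM in WT DOX hearts and 365.7, 372.6 and 366.7 FPKM in Sting-/- DOX. The groups lay far apart relative to the spread within them. Akr1a1 was 1.56-fold higher in WT DOX than in saline (log2 difference 0.63, SE 0.036, limma adjusted p = 2.02e-08) and 1.65-fold higher in Sting-/- DOX than in WT DOX (log2 difference 0.72, SE 0.036, limma adjusted p = 1.92e-09). All 18 alternatives kept both calls, with differences of 0.38 to 0.66 and 0.38 to 0.96.

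Cbr1 (gene ID 12408), a carbonyl reductase known to make doxorubicinol, fell in WT DOX against saline, where Akr1a1 rose. It was at 25.28, 25.37 and 27.10 FPKM under saline, at 16.26, 13.62 and 19.13 FPKM in WT DOX, where its libraries were widely spread, and at 20.00, 22.75 and 21.14 FPKM in Sting-/- DOX. The 3 groups did not overlap. In WT DOX it was at 0.63 times the saline mean (log2 difference -0.65, SE 0.095, limma adjusted p = 7.85e-05), and this fall held under all 18 alternatives. The higher level in Sting-/- DOX than in WT DOX, a log2 difference of 0.37 (SE 0.095, limma adjusted p = 0.00302), was not called after median-ratio scaling (0.047) or quantile normalization (0.17). Against saline Cbr1 was lower in Sting-/- DOX (log2 difference -0.27, limma adjusted p = 0.0171), a call that was lost without saline library 3 (-0.24, adjusted p = 0.0576) or without Sting-/- DOX library 1 (-0.23, adjusted p = 0.0647). That difference was larger after median-ratio scaling (-0.84, adjusted p = 3.86e-06) and quantile normalization (-0.64, adjusted p = 5.43e-05).

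Cbr3 (gene ID 109857), its close relative, was the lowest of the 9 genes in saline, at 1.58, 1.86 and 1.59 FPKM. It was at 3.07, 1.8 and 2.24 FPKM in WT DOX, overlapping saline, and at 6.26, 8.98 and 9.59 FPKM in Sting-/- DOX, above every WT library. The log2 difference between WT DOX and saline, 0.32 (SE 0.15), did not pass the test (limma adjusted p = 0.0855). It passed without WT DOX library 2 (0.44, adjusted p = 0.0285) or without Sting-/- DOX library 1 (0.32, adjusted p = 0.0394). The same difference was smaller after median-ratio scaling (0.15, limma adjusted p = 0.382) and quantile normalization (0.03, limma adjusted p = 0.869). Cbr3 was 3.49-fold higher in Sting-/- DOX than in WT DOX (log2 difference 1.46, SE 0.15, limma adjusted p = 1.98e-06) and 4.94-fold higher than in saline (log2 difference 1.78, limma adjusted p = 2.27e-07). Fibroblast markers were higher beside it in 9 of 10 cases in Sting-/- DOX against WT DOX, at a summed 8089 to 8579 FPKM against 1277 to 1325 FPKM. Also higher were 12 of 12 endothelial, 7 of 7 mesothelial and 5 of 5 erythroid markers. The smooth muscle and pericyte list had 6 higher and 1 lower of 8. All 12 cardiomyocyte markers and all 4 tested neutrophil markers were lower, and the remaining lists are given below. These counts stand beside 54.1% of all tested genes called higher and 29.7% called lower. The part of these cell types in the Cbr3 level was not tested.

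The share of Cbr3 in the carbonyl reductase pair was lowest under saline and highest in Sting-/- DOX. It was 5.88%, 6.83% and 5.54% in saline, 15.9%, 11.7% and 10.5% in WT DOX, and 23.8%, 28.3% and 31.2% in Sting-/- DOX, without overlap between groups (p = 0.1 for each comparison in the exact two-sided permutation test, the smallest possible). The sum of the pair, 27.6 ± 0.968 FPKM under saline, dropped to 18.7 ± 3.02 FPKM in WT DOX hearts and was 29.6 ± 2.91 FPKM in Sting-/- DOX (SD, n = 3 each). The total in Sting-/- DOX was near that of saline, while the shares of the pair did not overlap. The longest coding transcripts of Cbr1 and Cbr3 are 79.6% identical over 828 aligned bases, and 0.0842% of the 50-base windows of Cbr1 occur in Cbr3, so few windows of that length are shared.

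The windows upstream of these neighbours on chromosome 16 are shown because Cbr1 fell in WT DOX and Cbr3 did not pass the test there. The same motifs are in capitals as above.
Cbr1 (chr16:93607587-93607836, plus strand): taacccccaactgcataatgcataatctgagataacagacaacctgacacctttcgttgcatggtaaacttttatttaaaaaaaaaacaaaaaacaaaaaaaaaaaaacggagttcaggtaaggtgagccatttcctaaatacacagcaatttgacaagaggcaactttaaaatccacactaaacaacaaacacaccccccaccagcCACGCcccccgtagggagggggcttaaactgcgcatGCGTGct
Cbr3 (chr16:93682969-93683218, plus strand): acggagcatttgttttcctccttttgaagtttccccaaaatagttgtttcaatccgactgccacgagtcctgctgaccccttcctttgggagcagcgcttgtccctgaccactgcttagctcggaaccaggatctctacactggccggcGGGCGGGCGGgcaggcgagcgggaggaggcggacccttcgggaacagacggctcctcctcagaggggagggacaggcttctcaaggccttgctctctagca
The Cbr1 window holds the aryl hydrocarbon receptor core beginning 43 bases before the start in reverse and 7 bases before it forward, and the Cbr3 window holds overlapping GC boxes beginning 101 and 97 bases before the start. The receptor core is found in 28.2% of all windows. An antioxidant response element core, found in 10.2% of all windows, was in none of the windows of the 8 members that the RefSeq table holds, which says only that these letters are not within 250 bases of the listed starts. Abcc1 was not matched in that table.

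Nqo1 (gene ID 18104), NAD(P)H quinone dehydrogenase, had the largest difference of the 9 genes. It was at 36.59, 38.01 and 38.11 FPKM under saline, rose to 49.65, 50.62 and 49.16 FPKM in WT DOX, and was at 11.16, 7.73 and 9.59 FPKM in Sting-/- DOX. No groups overlapped, and the Sting-/- libraries lay far below both WT groups. The 1.33-fold rise in WT DOX (log2 difference 0.40, SE 0.091, limma adjusted p = 0.00219) was not called with median-ratio scaling (0.15, adjusted p = 0.151) or quantile normalization (0.21, adjusted p = 0.0611), and over all alternatives its adjusted p was 1.3e-05 to 0.151. Nqo1 was 5.25-fold lower in Sting-/- DOX than in WT DOX (log2 difference -2.29, SE 0.091, limma adjusted p = 2.39e-10), where 1.83% of all tested genes had a lower value. Against saline it was 3.96-fold lower (log2 difference -1.89, limma adjusted p = 8.41e-10). Both falls held under all 18 alternatives, at -2.60 to -2.16 and -2.45 to -1.77.

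The cardiomyocyte markers fell beside Nqo1 in the Sting-/- libraries. All 12 were lower in Sting-/- DOX than in WT DOX, beside 29.7% of all tested genes called lower. Their median log2 difference was -2.02, and their summed level was 10671 to 11213 FPKM against 46507 to 49307 FPKM. In WT DOX against saline 10 of 12 were lower, beside 21.5% of all tested genes. Their median was -0.70, from a summed 72361 to 73204 FPKM, while Nqo1 was higher. The marker Nkx2-5 was higher too (log2 difference 0.16, limma adjusted p = 0.0489), and Tnnt2 did not pass the test (-0.095, limma adjusted p = 0.0768). After median-ratio scaling 0 were higher and 11 lower. Per 100000 FPKM of these markers, a ratio chosen after the values were seen, Nqo1 stood at 50 to 52.5 FPKM under saline, 101.0 to 109.0 in WT DOX hearts and 69.4 to 105.0 in Sting-/- DOX. On this ratio the Sting-/- range reached into that of WT DOX and lay above that of saline. The part of the cardiomyocyte share in the Nqo1 level was not tested.

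Por (gene ID 18984), which passes single electrons from NADPH to cytochromes and to quinones, was highest in WT DOX, like Nqo1. It was at 20.66, 20.26 and 21.65 FPKM under saline, 29.55, 32.54 and 31.71 FPKM in WT DOX hearts and 25.30, 26.06 and 25.34 FPKM in Sting-/- DOX, again without overlap. Por rose 1.5-fold in WT DOX (log2 difference 0.56, SE 0.048, limma adjusted p = 7.45e-07) and was lower in Sting-/- DOX than in WT DOX (log2 difference -0.28, SE 0.048, limma adjusted p = 1.63e-04). Both calls held under all 18 alternatives, at 0.32 and -0.61 after median-ratio scaling and 0.37 and -0.44 after quantile normalization. Against saline Por was 0.28 higher in Sting-/- DOX (limma adjusted p = 1.28e-04), but lower after median-ratio scaling (-0.29, adjusted p = 8.82e-05) and at -0.069 after quantile normalization (adjusted p = 0.172). The direction of that difference therefore depends on the scaling.

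Levels in the 9 genes were ordered differently in the 3 groups. In saline the order by mean FPKM was Akr1a1, Nqo1, Cbr1, Por, Abcg2, Abcc1, Abcb1a, Abcb1b and Cbr3, and only the last neighbours, Abcb1b and Cbr3, overlapped in range. In WT DOX the neighbours Cbr1 and Abcg2 overlapped, as did Abcb1b and Cbr3. In Sting-/- DOX Nqo1 had dropped from the second place to the sixth, at 9.49 ± 1.72 FPKM, and lay among Cbr3 at 8.28 ± 1.77 FPKM, Abcc1 at 7.54 ± 0.144 FPKM and Abcb1b at 7.05 ± 0.935 FPKM (SD, n = 3 each), each overlapping the next in range. Abcg2 and Por were next to each other there, with Abcg2 slightly higher and no overlap.

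Other genes of drug transport and reduction give the setting, in lists that were chosen with earlier results of these data known. List genes named with a direction passed the limma test in that comparison. List counts stand beside 45.3% of all tested genes called higher and 21.5% lower in WT DOX against saline. Between the DOX groups these shares were 54.1% and 29.7%. After median-ratio scaling 3582 of the 12485 genes were higher and 5109 lower in WT DOX against saline. Between the DOX groups it was 4709 and 5385. Of 20 other transporters tested, WT DOX had 4 higher and 9 lower than saline, and Sting-/- DOX had 9 higher and 9 lower than WT DOX, with medians of -0.09 and 0.06. After median-ratio scaling these counts were 3 and 14, and 8 and 10, with medians of -0.32 and -0.24. Abcc3, which encodes a relative of MRP1, had 0.477 ± 0.0833, 3.2 ± 0.295 and 3.64 ± 0.254 FPKM under saline, WT DOX and Sting-/- DOX, and the prostaglandin carrier Slco2a1 had 0.743 ± 0.146, 2.68 ± 0.363 and 5.19 ± 0.212 FPKM. Slc22a3, an organic cation transporter, was at 2.49 ± 0.431, 1.06 ± 0.151 and 0.06 ± 0.0346 FPKM in that order (SD, n = 3 each). The organic anion carrier Slco2b1 and the solute carrier Slc22a17 were higher in Sting-/- DOX than in WT DOX by 1.67 and 2.03 on the log2 scale.

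Among 14 other carbonyl reductases tested, 2 were higher and 8 lower with the drug in WT hearts, at a median of -0.26. Between the DOX groups, 5 were higher and 8 lower in the absence of Sting, at a median of -0.22. After median-ratio scaling these were 2 and 10 at -0.51, and 4 and 8 at -0.54. Akr1b8, an aldo-keto reductase, stood out with 4.17 ± 0.605 FPKM under saline, 21.7 ± 1.30 FPKM in WT DOX hearts and 27.0 ± 1.97 FPKM in Sting-/- DOX (SD, n = 3 each). Akr1c14 and Akr1c19 showed the order of Abcb1a, lowest in WT DOX and highest in Sting-/- DOX, at 5.55, 2.69 and 13.9 FPKM and at 1.47, 0.443 and 4.29 FPKM as means of saline, WT DOX and Sting-/- DOX. The Akr1c genes lie in a family of close copies, so their division of reads is uncertain. Akr1c13, at 0.677 and 1.37 FPKM under saline and WT DOX, was higher by 0.51 on the log2 scale, under 16 of 17 alternatives. Cbr4 and Dhrs4, mitochondrial and peroxisomal reductases, were at 36.8 and 62.0 FPKM under saline and at 9.32 and 16.6 FPKM in Sting-/- DOX, and Hsd11b1, which reactivates glucocorticoids, was lower in Sting-/- DOX than in WT DOX (log2 difference -1.53).

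Other enzymes able to reduce quinones had 4 of 12 higher and 4 lower in WT DOX against saline, at a median of 0.12, and 3 higher and 5 lower after median-ratio scaling, at -0.11. Between the DOX groups 6 were higher and 5 lower in Sting-/- hearts, at a median of 0.20, which was -0.11 after median-ratio scaling. Ndufs1 and Ndufv1, subunits of the electron-input part of respiratory complex I, were lower in WT DOX and lower again in Sting-/- DOX, Ndufs1 from 339.9 ± 5.52 to 213.2 ± 4.78 and then 31.4 ± 1.61 FPKM (SD, n = 3 each), beside the fall of the cardiomyocyte markers. Cyb5r3, a cytochrome b5 reductase, went the other way, at 47.6 ± 2.73, 90.3 ± 1.69 and 197.5 ± 3.73 FPKM. Nos3 and Xdh, the endothelial nitric oxide synthase and xanthine dehydrogenase, were higher in Sting-/- DOX than in WT DOX by 1.70 and 1.53 on the log2 scale, beside the endothelial markers. Cyb5r4 was higher in WT DOX than in saline by 0.40, under 17 of 18 alternatives.

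Proteins that take electrons from Por were represented by 24 tested genes. The drug in WT hearts left 13 higher and 7 lower, at a median of 0.27 that was 0.02 after median-ratio scaling. Sting-/- hearts had 17 higher and 4 lower than WT DOX, at a median of 0.96, beside 54.1% of all tested genes called higher, and 16 higher and 7 lower after median-ratio scaling, at 0.65. Hmox1, heme oxygenase, rose from 7.13 ± 0.529 to 149.5 ± 1.85 FPKM in WT DOX and was at 66.6 ± 2.43 FPKM in Sting-/- DOX (SD, n = 3 each). Among cytochromes P450, Cyp4f18 rose in WT DOX by 2.55 on the log2 scale, while Cyp4b1 and Cyp26b1 had differences of -0.56 and -0.52. Cyp2d22 and Cyp1a1 were higher in Sting-/- DOX than in WT DOX by 2.64 and 2.21 on the same scale. Cyp1b1 was at 1.19, 4.25 and 14.4 FPKM in the 3 groups. Cyp3a13, lower in Sting-/- DOX than in WT DOX (log2 difference -1.29, limma adjusted p = 9.66e-04), was widely spread in WT DOX at 10.4 ± 4.96 FPKM. Against saline Cyp2u1 and Cyp39a1 were lower in Sting-/- DOX (log2 differences -0.88 and -0.24), the second under 15 of 17 alternatives.

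Known NRF2 targets other than the 9 genes were mostly higher in WT DOX. Of 26 tested, 18 were higher and 5 lower than under saline, beside 45.3% and 21.5% of all tested genes. The median was 0.66, beside 0.13 for all genes. After median-ratio scaling 15 were higher and 7 lower, at a median of 0.42. Between the DOX groups 9 were higher and 10 lower in Sting-/- hearts, at a median of -0.05, or 4 and 17 after median-ratio scaling, at -0.38. The list's lowest value, that of the glutathione transferase Gsta4 (-2.07), was less far down than the -2.29 of Nqo1. Me1, malic enzyme, was also lower there (-1.61), while Ftl1, ferritin light chain, and Ephx1, epoxide hydrolase, were higher by 1.45 and 1.56. Ftl1, which has near-identical copies that could share its reads, went from 313.8 ± 7.36 through 1187 ± 34.9 to 3240.4 ± 48.5 FPKM (SD, n = 3 each). Ephx1 and Gstm1 were lower in WT DOX than in saline (log2 differences -0.54 and -0.47). The list has Hmox1 in common with the previous one.

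The regulators were tested as transcripts only. Nfe2l2 was at 37.1 ± 1.70 FPKM under saline, 44.4 ± 0.822 FPKM in WT DOX hearts and 50.9 ± 1.52 FPKM in Sting-/- DOX (SD, n = 3 each). It was higher by 0.25 and then 0.19 on the log2 scale (limma adjusted p = 3.29e-04 and 0.00143). The first difference was not called after median-ratio scaling (0.005, limma adjusted p = 0.932) or quantile normalization (0.073, limma adjusted p = 0.159). Between the DOX groups Nfe2l2 passed as lower after median-ratio scaling (-0.14, limma adjusted p = 0.0126) and as higher after quantile normalization (0.14, limma adjusted p = 0.0119). Keap1 was higher in WT DOX by 0.16 (limma adjusted p = 0.0198), but at -0.085 after median-ratio scaling. Its difference of 0.04 between the DOX groups did not pass the test (limma adjusted p = 0.482), and after that scaling it passed as lower (-0.29, adjusted p = 2.95e-04). Of 7 tested regulators 3 were higher and 1 lower with the drug in WT hearts, and 4 were higher and 1 lower in Sting-/- hearts than in WT DOX. After median-ratio scaling these were 1 and 3, and 2 and 4. Ahr, the aryl hydrocarbon receptor, was at 1.79 ± 0.116, 1.93 ± 0.193 and 9.48 ± 0.308 FPKM, and Hif1a, the hypoxia factor, at 27.1 ± 0.833, 51.1 ± 0.936 and 45.9 ± 1.62 FPKM. Rxra, a nuclear receptor partner, was lower in WT DOX than in saline (log2 difference -0.36) and higher in Sting-/- DOX than in WT DOX by 0.52.

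**Figure D4:**
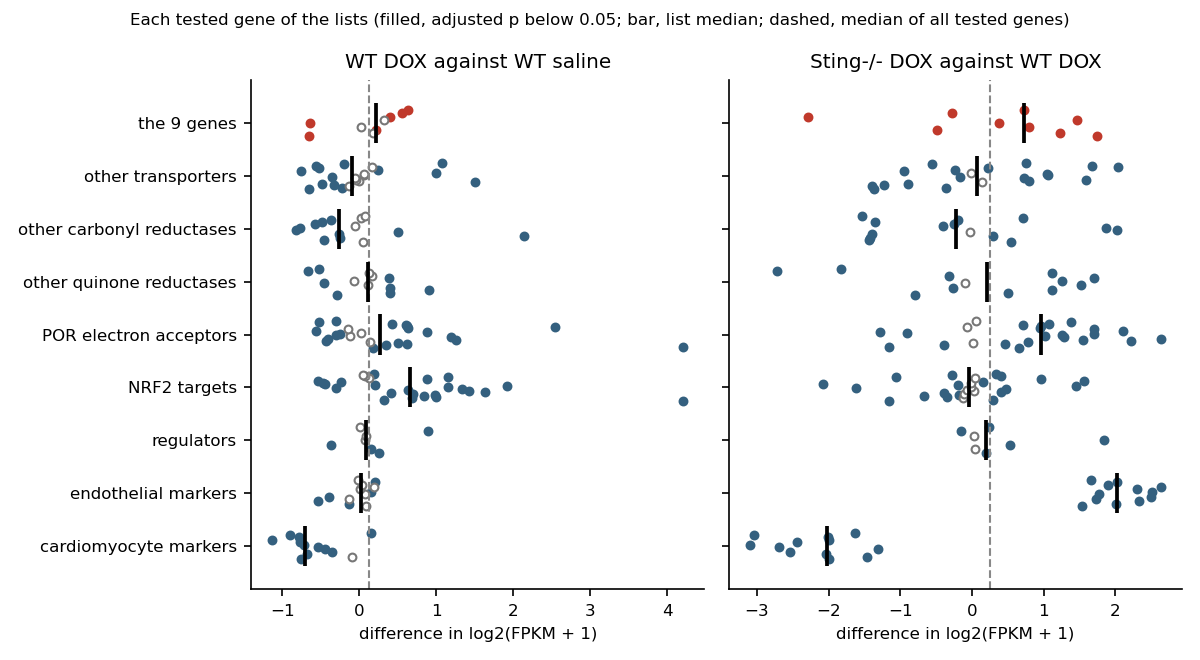
Difference in log2(FPKM + 1) (horizontal axis) of each tested gene of the lists, filled where the limma adjusted p was below 0.05, with the list median as a black bar and the median of all tested genes dashed, for WT DOX against saline (left) and Sting-/- DOX against WT DOX (right). The 9 genes lie on both sides of 0, NRF2 targets have a median of 0.66 on the left and -0.05 on the right, and endothelial and cardiomyocyte markers lie apart on the right at medians of 2.02 and -2.02.

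Genes with the profile most like each member's were found by the root-mean-square distance between log2(FPKM + 1) values over the 9 libraries, each gene centred on its own mean. The 2 nearest were Plcb4 and Etl4 for Abcb1a (distances 0.073 and 0.082), Arhgap33 and Sema4c for Abcb1b (0.070 and 0.072), and Arl15 and Hipk1 for Abcg2 (0.040 and 0.042). For Abcc1 they were Eif3c and Prmt5 (0.040 and 0.045). Nqo1 was nearest to Parm1 (0.085) and Xirp1 (0.10), a protein of the cardiac intercalated disc, which was at 47.8, 63.1 and 11.8 FPKM as means of saline, WT DOX and Sting-/- DOX. Por was nearest to Kdm5c and Agps (0.034 and 0.041) and Akr1a1 to Ywhah and Cdkn2aipnl (0.035 and 0.038). Syt3 and Spint2 were nearest to Cbr1 (both 0.11), and Ifitm5 and Tspan5 to Cbr3 (0.11 and 0.15). A distance grows with the size of a member's own profile, whose root-mean-square ran from 0.21 for Abcc1 to 1.005 for Nqo1, so distances are not ranked between members. These distances describe 3 groups of libraries rather than 9 separate conditions.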

How the data were processed

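RNA-seq libraries of mouse heart, 9 in 3 groups, were analysed. Each library has its own table, in which the authors gave FPKM for 16873 Entrez gene IDs, per the file headers. Per the submitters' processing notes, HISAT2 2.0.4, Bowtie2 2.2.5, RSEM 1.2.12 and the build GRCm39 were used, with no role or order given; whether reads shared by near-identical genes were divided by a model is not given in the sources used here. Of the IDs, 16825 matched a symbol in a RefSeq table of GRCm38.p6 and 48 did not. As FPKM are not counts, count models were left out.

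The test was limma 3.58.1 on log2(FPKM + 1) (R 4.3.3; trended variance prior, all 9 libraries in 1 fit, 6 residual degrees of freedom) on the 12485 genes that averaged 1 FPKM or more, two-sided, with Benjamini-Hochberg adjustment over all of them and a threshold of 0.05. This scale understates the change of low genes, and fold values in the text are ratios of mean FPKM. The step was tested on simulated data with known changes. Pair shares were tested by exact permutation. Python 3.11.15, pandas 2.3.3 and matplotlib 3.10.9 were used for joins and figures.

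The 9 genes, the 6 pathway lists and the 11 marker lists were chosen with earlier results of these data known. Named list genes are, per list and comparison, up to 2 higher and 2 lower with the largest difference among called genes whose groups do not overlap; Nfe2l2, Keap1, 5 marker examples and, per member, the 2 nearest profiles were added. Abcb4 is named under the transporter list, and a gene that this rule names is not reported here. Alternatives covered the pseudocount, filter, scaling, samples in the fit, variance prior, replicate block and leaving out each library.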

Additional observations from a re-analysis of the deposited data

How the results depend on the processing

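Of the 1062 alternative values computed, 1037 were counted as kept, and most exceptions came from scaling. Kept means the same direction and side of the threshold for a gene, and within 1.5 times for a count. For a pair share it means a shift of less than the pooled SD of the groups with a library left out. For the log2 ratio of a pair it means the same direction. A difference called in neither setting was counted as kept whatever its sign, as for Abcb1b in WT DOX against saline (-0.113 after quantile normalization). With median-ratio scaling and quantile normalization, 3582 and 3461 genes were called higher, and 5109 and 5363 lower, with the drug in WT hearts (5651 and 2680 with FPKM as deposited), and 5493 and 5205 were lower in Sting-/- DOX than in saline (3228). Under both, 2 of the 9 genes, not 4, were called higher with the drug in WT hearts, and 3, not 2, were called lower. The counts over all tested genes, given above for that comparison, moved the same way, with fewer higher and more lower calls. The change in the member counts is therefore not particular to the 9 genes. The differences that turned with these 2 scalings were those of Abcc1 (-0.015 and -0.010) and Abcg2 (-0.211 and -0.184) in WT DOX against saline and of Por (-0.290 and -0.069) in Sting-/- DOX against saline. The cause was not tested. A mean of at least 5 FPKM left fewer genes tested: Abcb1b and Cbr3 were not tested, and 11, 12 and 11 genes that take electrons from Por were called in the 3 comparisons in place of 20, 21 and 22. With the replicate number as a block, 5607 genes were called higher and 2640 lower with the drug in WT hearts, and no call among the 9 genes changed; same-numbered libraries deviated from their group means with r of -0.0323 to 0.104, so the numbers are not taken to pair them. Cbr3 has the least depth of the 9 genes.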

Other observations

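Markers of other cell types give the background against which these levels stand. In WT DOX against saline 45.3% of all tested genes were called higher and 21.5% lower. The macrophage list was higher in 10 of 10 tested cases (median log2 difference 1.43) and the neutrophil list in 4 of 4 (4.31). The T and natural killer cell list was higher in 2 of 3 (1.42) and the fibroblast list in 8 of 10 (1.15). The adipocyte list had 3 higher and 1 lower of 4 (1.84). The lower one was Fabp4 (log2 difference -0.21), and the summed level of that list was 892.6 to 1067 FPKM in WT DOX against 1062 to 1165 FPKM in saline. The erythroid list was lower in 5 of 5 (-0.67). The smooth muscle and pericyte list had 3 higher and 4 lower of 8 (-0.23), and the mesothelial list 2 higher and 2 lower of 7 (0.095, or -0.26 after quantile normalization). Of 6 genes known from blood-brain barrier endothelium, the 4 tested (Slc2a1, Slc7a5, Tfrc and Lsr), which other cells also express, were higher in WT DOX (1.15). Slco1c1 was below the filter at 0.06 to 0.14 FPKM in the saline group and 0.02 to 0.09 FPKM in WT DOX, and Mfsd2a was not analysed here.

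In Sting-/- DOX against WT DOX 54.1% of all tested genes were called higher and 29.7% lower. The mesothelial list was higher in 7 of 7 cases (2.5). The smooth muscle and pericyte list had 6 higher and 1 lower of 8 (1.73). The macrophage list had 6 higher and 3 lower of 10 (0.29, or -0.04 after median-ratio scaling, with 4 higher and 3 lower), the adipocyte list had 2 of 4 higher (1.11), the T and natural killer cell list 1 higher and 2 lower of 3 (-0.51), and the neutrophil list was lower in 4 of 4 (-1.39). The 4 blood-brain barrier genes tested had 3 lower and 1 higher (-0.86). Ngp, a neutrophil marker below the filter, went the other way from its list, at 0 to 0.55 FPKM in WT DOX hearts and 1.2 to 1.7 FPKM in Sting-/- DOX. The neutrophil markers Ly6g, Camp and Mpo and the T cell marker Trac were not analysed here. The part of these cell types in the levels of the 9 genes was not tested.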
